A study of Mus musculus with 6 samples.

Results

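Lrrk2, Pink1, Park7, Vps35, Uchl1, Dnajc6, Synj1 and Fbxo7 are mouse counterparts of genes that have been linked to inherited Parkinson disease, in which midbrain dopamine neurons are lost. These 8 genes were chosen by name from the 26852 genes of the deposited table, and all 8 were among the 17147 genes that could be tested. RNA was sequenced from dissected midbrain of C57Bl/6 embryos (C57BL/6J lines in the study's methods) at E14.5, as 3 libraries of Lmx1b fl/fl;Pitx3-Cre embryos (cKO) and 3 libraries of Lmx1b wt/wt;Pitx3-Cre littermates (control). Each library pooled 2 embryos, and the embryos came from 4 litters. Cre is expressed from the Pitx3 locus, so both groups carry the Cre allele in place of a Pitx3 allele, and they differ in the floxed Lmx1b alleles. Lmx1b, a Lim homeobox transcription factor, is deleted in the cells that express Pitx3, the mesodiencephalic dopaminergic (mdDA) neurons, while the RNA came from the whole dissected midbrain. In such bulk RNA, fewer cells of a type and less RNA per cell cannot be told apart, and a change within the mdDA neurons is diluted by the other cells.

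The proteins of these genes act in a few connected routes. Pink1 is a mitochondrial kinase that marks damaged mitochondria for removal (mitophagy), and Park7, also known as DJ-1, is a protein sensitive to oxidation. Lrrk2 is a large kinase with a GTPase domain that phosphorylates Rab GTPases, and Vps35 is the core of the retromer, which returns cargo from endosomes. Synj1 encodes synaptojanin, a lipid phosphatase, and Dnajc6 encodes auxilin, a co-chaperone, and both strip the clathrin coat from vesicles at the synapse. Uchl1 is an abundant neuronal ubiquitin hydrolase, and Fbxo7 is an F-box protein of a ubiquitin ligase. At this stage mdDA neurons have left the cell cycle and express genes of their transmitter identity, such as Th.

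The read counts of each library were recovered as whole numbers from the group means in the table, and are given as normalized read counts, that is reads divided by the size factor of the library. Each recovered library has a known genotype but no sample number, so within a genotype the letters a to c run from the highest to the lowest size factor. Recovered reads on genes numbered 27658165 to 33477408 per library. The header of the table numbers the libraries of each genotype, but these numbers cannot be attached to the recovered libraries, so no cKO library could be matched to a control library. Lmx1b itself had 1257, 1401 and 1455 normalized reads in cKO replicates a to c and 1368, 1352 and 1474 in the controls (exact permutation test, p = 0.8), so its level in the whole dissection did not serve to check the labels. All 12 mdDA markers, Th and Pitx3 among them, were above 3 reads in at least 1 library, and their summed level overlapped between the groups, at 12192 to 12626 in the cKO and 11954 to 14023 in the control. Single markers went both ways, with a log2 fold change below 0 for 9 of the 12, against 49.5% of all genes, and the groups did not overlap for 5 of the 12, against 7.56% of all genes. Pitx3 was at -0.41 (limma, unadjusted p = 0.0407, adjusted p = 1.00) and Ddc at -0.24 (unadjusted p = 0.0362, adjusted p = 1.00), with the cKO libraries lower. Aldh1a1 was at 0.92 (limma, unadjusted p = 0.000251, adjusted p = 1.00), with the cKO libraries higher. The summed level of 12 bone and mesenchyme markers stood apart in cKO replicate c, at 14728, against 989 and 2584 in the other cKO libraries and 948 to 1096 in the controls. Of 11 of these markers tested, 1 had a log2 fold change below 0 and the median was 1.21. The groups did not overlap for 3 of the 11, against 7.56% of all genes, and none had an adjusted p under 0.05. Col3a1 was at 1.84 (limma, unadjusted p = 0.0367), with the cKO libraries higher. Of 9 erythroid markers tested, 1 had a log2 fold change below 0 and the median was 0.30, with Hbb-bs at 0.30 (limma, unadjusted p = 0.0344, adjusted p = 1.00) and Hba-a1 at 0.26 (unadjusted p = 0.0395, adjusted p = 1.00), while their summed level overlapped between the groups, at 13881 to 18146 in the cKO and 12579 to 17177 in the control. The summed level of 4 Y-linked genes was 4423, 4938 and 3597 in cKO replicates a to c and 2476, 7631 and 8585 in control replicates a to c, so that control replicate a was the lowest library and the other controls the highest. The Y-linked level, like that of cycling markers, was entered in the limma fit as a covariate. The blood and mesenchyme levels were set against the 8 genes across the libraries, as given below, but no fit held them as a covariate. The part of the mdDA, blood and mesenchyme levels in the differences between the genotypes was not tested.

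The start regions are shown for Lrrk2 and Park7, which had the largest differences between the genotypes, and for Dnajc6 and Synj1, whose 6 libraries fell in the same order. The sequences are from RefSeq on GRCm38.p6, 5′ to 3′, and are the bases of the 250 before the start that lie ahead of any annotated exon. The RefSeq starts of Park7 and Dnajc6 used here lie inside the longer span that GENCODE gives these genes. Capitals mark GGGCGG, the GC box, or its reverse complement.
Lrrk2, chr15:91672974-91673174, plus strand: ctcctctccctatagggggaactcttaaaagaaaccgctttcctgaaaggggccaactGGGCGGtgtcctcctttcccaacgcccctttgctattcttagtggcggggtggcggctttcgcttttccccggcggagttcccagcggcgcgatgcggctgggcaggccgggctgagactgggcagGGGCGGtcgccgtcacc
Park7, chr4:150909927-150910171, minus strand: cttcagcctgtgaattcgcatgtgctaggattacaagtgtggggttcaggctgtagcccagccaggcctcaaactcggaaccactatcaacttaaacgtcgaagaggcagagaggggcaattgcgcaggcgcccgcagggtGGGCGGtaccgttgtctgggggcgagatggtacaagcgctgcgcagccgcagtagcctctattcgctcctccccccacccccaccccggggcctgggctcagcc
Dnajc6, chr4:101550344-101550479, plus strand: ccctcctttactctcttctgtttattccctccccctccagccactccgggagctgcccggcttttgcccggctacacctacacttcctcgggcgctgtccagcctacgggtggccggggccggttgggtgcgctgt
Synj1, chr16:91011320-91011558, minus strand: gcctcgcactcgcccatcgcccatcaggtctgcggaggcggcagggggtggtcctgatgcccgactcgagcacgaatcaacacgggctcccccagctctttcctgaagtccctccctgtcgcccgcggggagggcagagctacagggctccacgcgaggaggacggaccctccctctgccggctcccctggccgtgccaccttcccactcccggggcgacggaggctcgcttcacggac

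GGGCGG, searched on both strands in the 250 bases before the start, was found for Lrrk2, Pink1, Park7, Dnajc6 and Synj1, that is in 5 of 10 windows of 7 genes, Vps35 not among them, against 32.7% of 32817 RefSeq windows. In Dnajc6 the match lies in the exonic part of the window shown, and in Synj1 in a second window, so neither appears in the bases above. TAATTA, a core that homeodomain proteins such as Lmx1b can bind, was found in 0 of the 10 windows, against 4.85% of all windows. TATAAA was also found in 0 of the 10, against 12.4%, as were CACGTG, against 6.02%, and the palindromic NRF1 site, against 0.777%. The windows of Lrrk2, Park7, Pink1, Synj1 and Fbxo7 held between 57.2% and 71.6% G and C, above the median of 52.4% over all windows. The Uchl1 window held 48.8%, and those of Dnajc6 held 50.8% and 60.4%. Annotated exons covered all 250 bases of each Fbxo7 window, 222 of the Uchl1 window and 224 of the second Synj1 window. For these windows the motif and base counts describe mostly exon sequence. None of these motifs contains another, and a match is a description of the letters only.

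All 8 genes were expressed in the embryonic midbrain, at levels per exon length that spanned more than 3 orders of magnitude. Uchl1 was highest, at 10755 ± 733 normalized reads per kb of exon (SD, n = 6), above 99.8% of the genes tested. Pink1 followed at 1200.4 ± 61.6, 8.96-fold below Uchl1, with no overlap between the libraries of these genes. Park7 at 1078 ± 68.6, Dnajc6 at 970.2 ± 77.7 and Synj1 at 905 ± 32.6 came next, and from Pink1 to Synj1 each gene overlapped its neighbour in the order. Vps35 lay below all libraries of Synj1, at 666 ± 34.2. Fbxo7 at 65.5 ± 3.05 was 10.2-fold below Vps35, and Lrrk2 was the lowest, at 8.50 ± 1.58, above 7.62% of the genes tested. Among Pink1, Park7, Dnajc6 and Synj1, all Pink1 libraries lay above those of Dnajc6 and Synj1 and all Park7 libraries above those of Synj1. Overlap of libraries covers only the spread between libraries. The order also depends on the exon length, which joins the exons of all annotated transcripts of a gene. In mean normalized reads not divided by length, Vps35 at 5928 stood above Dnajc6 at 5733, Pink1 at 3209 and Park7 at 2673.

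**Figure D1:**
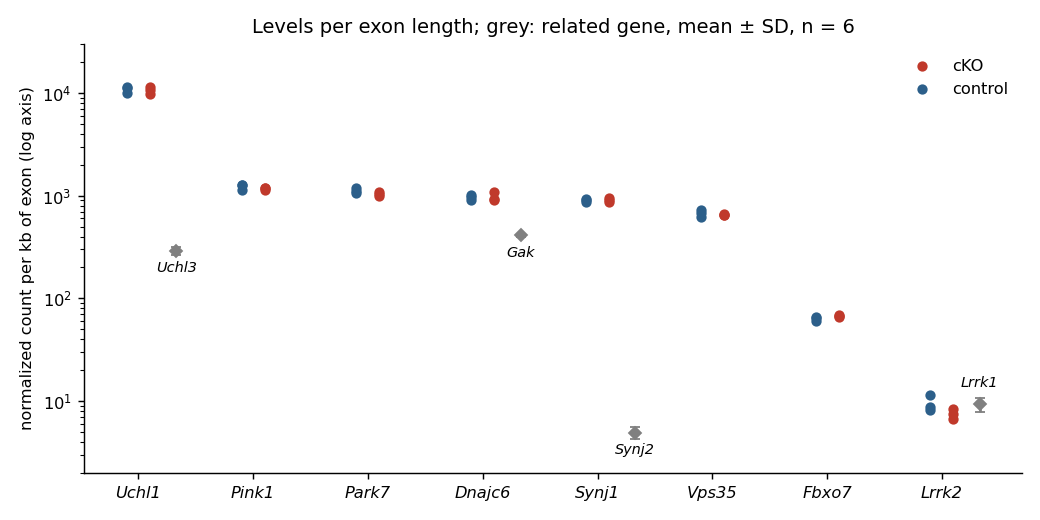
Normalized read count per kb of exon (log axis) of the 8 Parkinson disease genes in each control (blue) and cKO (red) library, with the related genes Uchl3, Gak, Synj2 and Lrrk1 in grey (mean ± SD, n = 6). Uchl1 lies near 10755, the group from Pink1 to Vps35 between 624.9 and 1272, Fbxo7 near 65.5 and Lrrk2 near 8.50, close to Lrrk1.

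The comparison of cKO with control asked whether loss of Lmx1b from Pitx3-expressing cells changes the RNA level of these genes at E14.5. None of the 8 passed the limma test, with an adjusted p of 1.00 for each, and none had an unadjusted p under 0.05. Over all genes, 0% passed the adjusted threshold, and 473 of 17147 (2.76%) had an unadjusted p under 0.05, 198 of them higher (1.15%) and 275 lower (1.6%) in the cKO. The libraries of the groups overlapped for all 8, while they did not overlap for 7.56% of all genes. Lrrk2, Park7, Pink1, Vps35 and Uchl1 had a log2 fold change below 0 and Dnajc6, Synj1 and Fbxo7 above 0, which is 5 of 8 below 0 against 49.5% of all genes, and the median was -0.029 against 0.0012 over all genes. These signs are not stable, since those of Vps35, Uchl1, Dnajc6 and Synj1 each changed when a single library was left out, Vps35 without control replicate a (0.022), Uchl1 without cKO replicate c (0.036) or control replicate b (0.016), and Dnajc6 (-0.081 and -0.039) and Synj1 (-0.022 and -0.012) without cKO replicate a or control replicate a. Control replicate a is the library with the highest cycling and the lowest Y-linked level. The exact permutation test of 3 against 3 libraries cannot give a p below 0.1, and gave 0.2 or more for each gene.

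**Figure D2:**
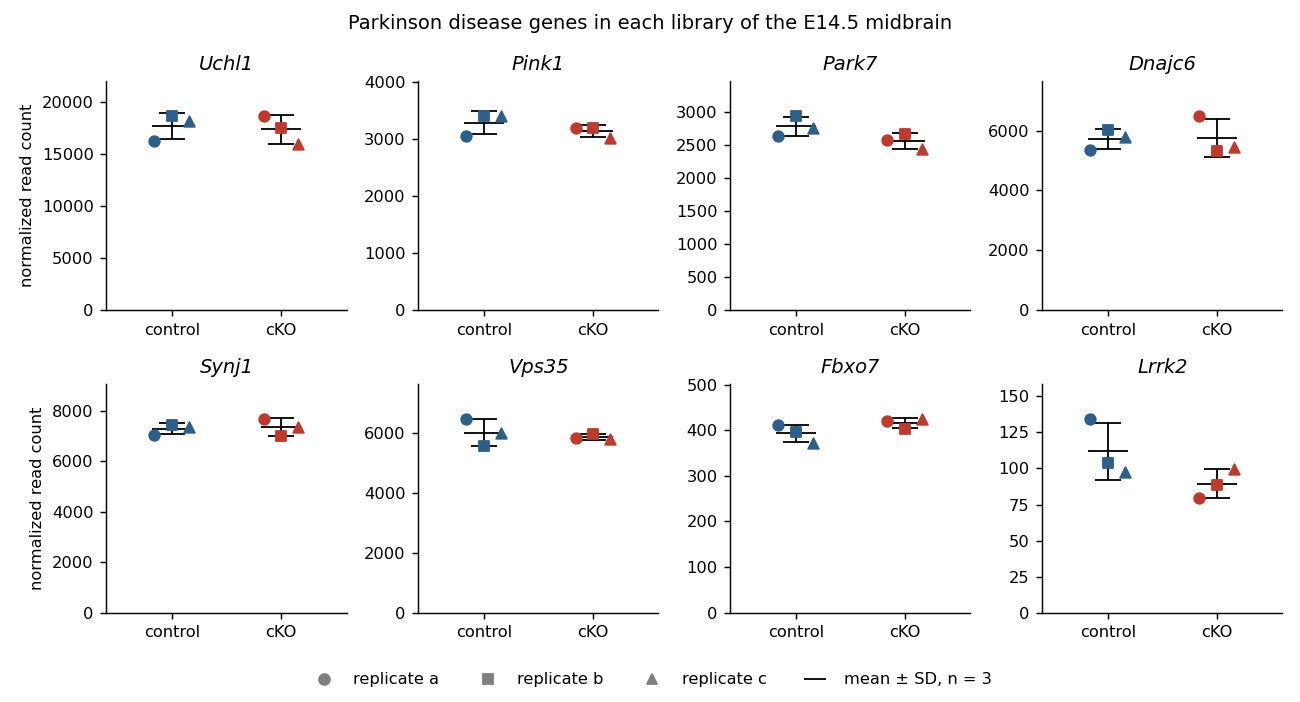
Normalized read count of each gene (vertical axes from 0, a different scale for each gene) in the 3 control and 3 cKO libraries, with the symbol shape for replicates a, b and c and bars for mean ± SD. The red and blue points overlap in every panel. Lrrk2 has the widest spread, from 79.6 to 134.

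Lrrk2 (ENSMUSG00000036273) lies on chromosome 15 of GRCm38, at 91673175 to 91816120 on the plus strand, with 11834 bp of exon. It had 79.6, 88.8 and 99.6 normalized reads in cKO replicates a to c, against 134, 104 and 97.2 in control replicates a to c. Control replicate a was the highest library and cKO replicate a the lowest, and cKO replicate c lay above control replicate c. The means were 89.3 ± 9.98 and 112 ± 19.9 (SD, n = 3 each), with a log2 fold change of -0.33 (SE 0.21, 95% interval -0.80 to 0.13, unadjusted p = 0.144). Without control replicate a the log2 fold change was -0.18. Lrrk2 was the gene with the fewest reads, 84 to 152 per library, and counting error alone gives a coefficient of variation of 10.1%, near the 11.2% seen among the cKO libraries and below the 17.8% among the controls. In per cent, the interval runs from -42.6% to 9.58%, the widest of the 8 genes.

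Pink1 (ENSMUSG00000028756; chromosome 4, 138313409 to 138326307, minus strand) had 3198, 3189.96 and 3013 normalized reads in the cKO and 3053, 3399.6 and 3399 in the control. Control replicate a lay among the cKO libraries and the other controls above all of them. The log2 fold change was -0.064 (SE 0.059, 95% interval -0.19 to 0.065, unadjusted p = 0.302), or between -12.5% and 4.64%. A pair of microRNA genes on the same strand overlap 179 bp of its exons.

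Park7 (ENSMUSG00000028964) is also on chromosome 4, from 150897133 to 150914437 on the minus strand. Its cKO libraries had 2579, 2672 and 2439 normalized reads and its control libraries 2645, 2941 and 2763. The groups overlapped by a single pair, since cKO replicate b lay just above control replicate a. The means were 2563 ± 118 and 2783 ± 149 (SD, n = 3 each), and the log2 fold change of -0.12 (SE 0.060, 95% interval -0.25 to 0.015) had the smallest unadjusted p of the 8 genes, 0.0773. By that p, Park7 ranked 805 among 17147 genes. With single libraries left out, the unadjusted p ran from 0.0317 without control replicate a, at a log2 fold change of -0.16, to 0.269 without control replicate b, at -0.076. It was 0.0408 with the level of cycling markers as a covariate and 0.127 with that of Y-linked genes, and the adjusted p was 0.982 or above in every fit. Park7 was lowest in cKO replicate c, the library with the highest summed level of mesenchyme markers, and without that library the log2 fold change was -0.083 (unadjusted p = 0.244). The relation of Park7 to the mesenchyme level across libraries is given below, but the part of that tissue in the difference between the genotypes was not tested.

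Vps35 (ENSMUSG00000031696; chromosome 8, 85260392 to 85299802, minus strand) had 5829, 5954 and 5775 normalized reads in the cKO and 6468, 5561 and 5982 in the control. The cKO libraries all lay between the lowest and the highest control, and their coefficient of variation was 1.57%, against 7.56% among the controls and 1.30% from counting alone. The log2 fold change was -0.035 (SE 0.057, 95% interval -0.16 to 0.090), or -10.5% to 6.43%. Orc6, on the opposite strand, overlaps 171 bp of its exons, and its mean count was 17.0% of that of Vps35. Whether the authors' counting used strand is not given in the sources used here, so reads in that overlap cannot be assigned to either gene with certainty.

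Synj1 (ENSMUSG00000022973; chromosome 16, 90936092 to 91011308, minus strand) had 7688, 6983 and 7365 normalized reads in the cKO and 7041, 7442 and 7373 in the control. Dnajc6 (ENSMUSG00000028528; chromosome 4, 101496648 to 101642799, plus strand) had 6487, 5315 and 5460.5 in the cKO and 5334, 6007 and 5792 in the control. The 6 libraries fell in the same order for both coat-removal genes, from cKO replicate a at the top to cKO replicate b at the bottom, with the controls in between. The log2 fold change was 0.013 for Synj1 (SE 0.049, 95% interval -0.096 to 0.12) and 0.011 for Dnajc6 (SE 0.075, 95% interval -0.15 to 0.17). In per cent these intervals are -6.41% to 8.75% and -10.0% to 12.8%.

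Uchl1 (ENSMUSG00000029223; chromosome 5, 66676091 to 66687234, plus strand) had 18683, 17536 and 15964 normalized reads in the cKO and 16249.7, 18639 and 18242 in the control. The lowest and the highest library were both cKO, replicates c and a. The log2 fold change was -0.023 (SE 0.064, 95% interval -0.16 to 0.12), or -10.7% to 8.48%. Between 14749 and 19941 reads per library fell on Uchl1, so counting alone gives a coefficient of variation of 0.756%, while the libraries varied by 7.85% within the cKO and 7.23% within the control.

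Fbxo7 (ENSMUSG00000001786; chromosome 10, 86021972 to 86051873, plus strand) had 419.7, 404 and 425 normalized reads in the cKO and 411, 397 and 373 in the control. The means were 416 ± 11.3 and 393 ± 19.2 (SD, n = 3 each), and cKO replicate b lay below control replicate a. The log2 fold change was 0.079 (SE 0.10, 95% interval -0.14 to 0.30), the highest of the 8, and the spread within each group was no larger than counting error, at 2.71% and 4.88% against 4.97%. For 6 of the 8 genes the whole 95% interval lay within 20% of no change, the exceptions being Lrrk2 and Fbxo7, the genes with the fewest reads.

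**Figure D3:**
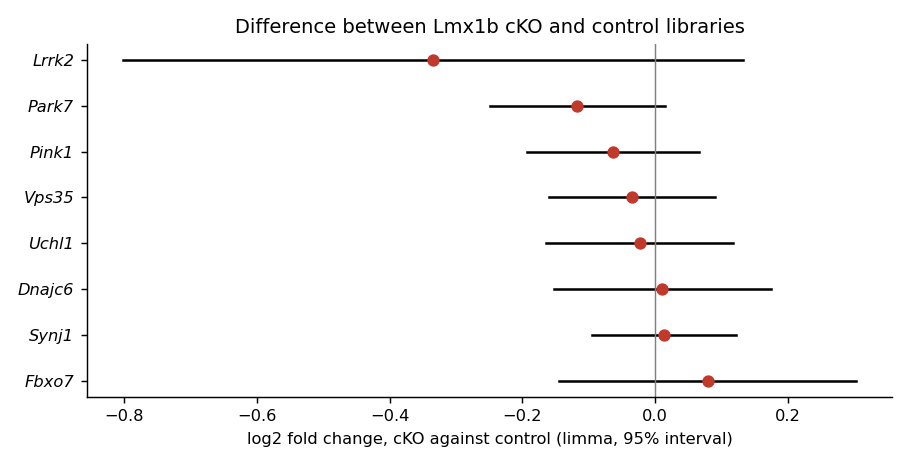
log2 fold change of cKO against control with its 95% interval (limma, 3 against 3 libraries) for each of the 8 genes. Every interval contains 0, and that of Lrrk2, from -0.80 to 0.13, is the widest.

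Several of the genes have a close relative in the genome, and the libraries show which of each pair prevails per kb of exon. The pairs were picked after the values of the 8 genes were known. Dnajc6, the neuronal auxilin, was at 2.18 to 2.66 times the level of its broadly expressed relative Gak across the libraries. Synj1 was at 153 to 228 times the level of Synj2, which stood at 4.89 ± 0.652 per kb (SD, n = 6). Uchl1 was at 34.1 to 41.6 times the level of Uchl3. Lrrk2 and Lrrk1 were close to each other, at 8.50 ± 1.58 and 9.37 ± 1.46 per kb, and the ratio of Lrrk2 to Lrrk1 ran from 0.655 to 1.23. That ratio averaged 0.775 in the cKO and 1.09 in the control, with overlap between the groups (exact permutation test, two-sided, p = 0.2). For the other ratios the exact permutation test gave p = 0.6 or more. Of the retromer subunits that bind Vps35, Vps26b stood above Vps26a, at 1173 ± 50.3 and 488 ± 23.9 per kb, and the ratio of Vps26a to Vps26b was 0.368 to 0.459.

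The routes in which these proteins act were followed through 7 lists of partner genes, 121 genes in all. None of the 121 passed the test, whether adjusted or at an unadjusted p under 0.05, against 2.76% of all genes at the unadjusted threshold. Of them 60 had a log2 fold change below 0, and the groups did not overlap for 4, against 7.56% of all genes. The median log2 fold change of the lists lay between -0.0078 and 0.024, beside 0.0012 over all genes.

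Among 14 other genes linked to inherited Parkinson disease or parkinsonism, 6 were below 0. The smallest p there was that of Rab39b, a neuronal Rab GTPase, with 1782, 1507 and 1577 normalized reads in the cKO and 1492, 1465 and 1452 in the control. All cKO libraries lay above all controls, at a log2 fold change of 0.14 (95% interval -0.017 to 0.30, unadjusted p = 0.0756, adjusted p = 1.00). Among 16 genes of the retromer, its sorting nexins and the WASH complex, 10 were below 0. Snx3, a sorting nexin that brings retromer to endosomes, had 2173, 2147 and 2122.5 normalized reads in the cKO and 2249, 2287 and 2474 in the control. Its libraries did not overlap, with the cKO lower, at a log2 fold change of -0.12 (95% interval -0.24 to 0.0085, unadjusted p = 0.0648, adjusted p = 1.00). Since 7.56% of all genes had groups apart, neither gene stands out by that measure.

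Of 13 genes around Lrrk2, its relative Lrrk1, the Rab GTPases that it phosphorylates and the phosphatase Ppm1h that reverses this, 7 were below 0. Rab35, which acts in endocytic recycling, had the smallest p, at a log2 fold change of 0.10 (unadjusted p = 0.105). Of 22 genes of mitochondrial import, cleavage and mitophagy around Pink1, 11 were below 0. Bnip3, a mitophagy receptor that responds to low oxygen, had 625 ± 47.9 normalized reads in the cKO and 536 ± 74.5 in the control (SD, n = 3 each), at a log2 fold change of 0.23 with an unadjusted p of 0.0720. Of 22 clathrin coat, adaptor and uncoating genes around Synj1 and Dnajc6, 11 were below 0. Hspa8, the chaperone that auxilin recruits to the coat, had 5082, 5809 and 5139 normalized reads in the cKO and 5549, 3902 and 4747 in the control, at a log2 fold change of 0.18 (unadjusted p = 0.102). Control replicate b alone was far below the other libraries of Hspa8.

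The ubiquitin list of 14 genes, with hydrolases related to Uchl1 and the partners of Fbxo7, had 5 below 0. Its smallest p was 0.176, for the proteasome-bound hydrolase Uchl5, at a log2 fold change of 0.13. In the antioxidant list of 20 genes, the setting of Park7, 10 were below 0. Keap1, the sensor that holds the antioxidant factor Nfe2l2 in check, had the smallest p there, 0.128, at a log2 fold change of -0.10.

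**Figure D4:**
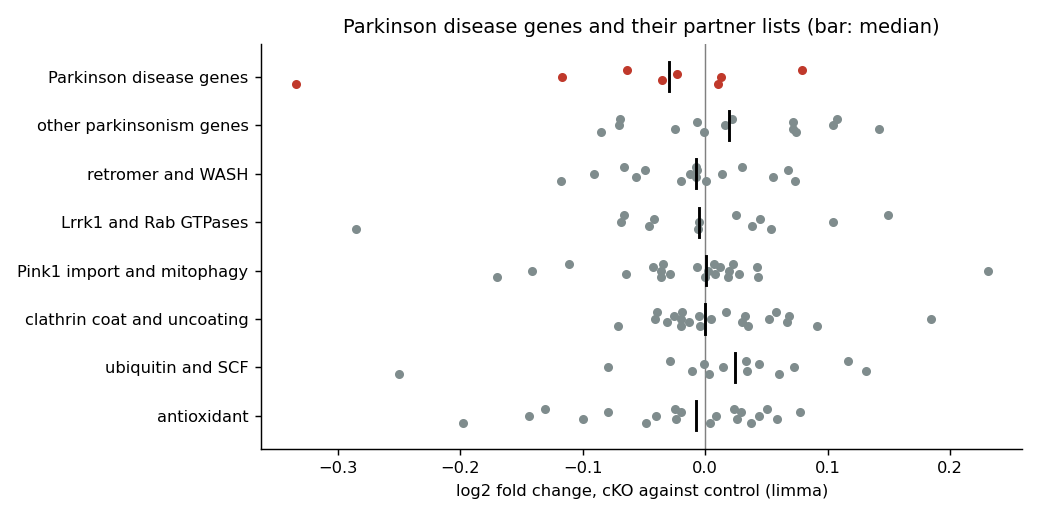
log2 fold change of cKO against control for the 8 Parkinson disease genes (red) and for the genes of 7 partner lists (grey), with a black bar at the median of each row. All medians lie between -0.029 and 0.024, and the lowest point among the 8 is Lrrk2 at -0.33.

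The libraries differed in the level of cycling progenitor markers, within both genotypes. The summed level of 14 such markers was 6982, 9024 and 8483 in cKO replicates a to c and 10600.4, 6612 and 7774 in control replicates a to c, with the controls at both ends (exact permutation test, p = 1.0). The 8 genes were set against this level and against the summed levels of the neuron, blood and mesenchyme markers, 32 relations in all, and none held after adjustment over the 32 (smallest adjusted p = 0.222, exact permutation tests). With 6 libraries the exact p has a floor that leaves little room after this adjustment, so a relation that did not pass is not shown to be absent. For Dnajc6, Pearson's r with the cycling level was -0.85 over the 6 libraries (exact permutation p = 0.0306, adjusted 0.267) and Spearman's rho was -0.89 (p = 0.0333, adjusted 0.311). For Synj1, r was -0.84 (exact permutation p = 0.0375, adjusted 0.267) and rho -0.89 (p = 0.0333, adjusted 0.311). Without the libraries farthest from the median level, control replicates a and b, r was -0.99 for Dnajc6 and -0.93 for Synj1 over 4 libraries. Vps35 ran the other way, with r = 0.86 (exact permutation p = 0.0278, adjusted 0.267) and rho = 0.71 (p = 0.136, adjusted 0.436), but r was 0.20 without these libraries, so the relation rests on them. For Uchl1, r was -0.80 (exact permutation p = 0.0639, adjusted 0.283) and rho -0.77 (p = 0.103, adjusted 0.365), with r = -0.66 over the 4 libraries.

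The summed level of 9 of 12 neuron markers, the others not having been recovered, ran from 120040 to 133882, highest in cKO replicate a, where Dnajc6, Synj1 and Uchl1 were also highest. Dnajc6 followed this level with r = 0.97 (exact permutation p = 0.00694, adjusted 0.222) and rho = 0.83 (p = 0.0583, adjusted 0.311), and r was 0.78 without cKO replicate a and control replicate b, the libraries farthest from its median. For Uchl1, r was 0.77 (exact permutation p = 0.0708, adjusted 0.283), rho 0.94 (p = 0.0167, adjusted 0.311) and r without these libraries 0.75. For Synj1, r was 0.80 (exact permutation p = 0.0625, adjusted 0.283) and rho 0.83 (p = 0.0583, adjusted 0.311), but r was 0.29 without them. Park7 ran against the mesenchyme level, with r = -0.81 (exact permutation p = 0.0417, adjusted 0.267) and rho = -0.83 (p = 0.0583, adjusted 0.311), and r was -0.60 without cKO replicates a and c. In the other relations, which include all those of Lrrk2, Pink1 and Fbxo7 and all those with blood markers, the exact permutation p was 0.103 or more for r and rho alike.

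A genotype has 3 libraries, too few to give these relations within each. When the cycling level entered the limma fit, the 95% interval for the genotype narrowed from -0.15 to 0.17 to -0.098 to 0.11 for Dnajc6 and from -0.16 to 0.12 to -0.11 to 0.059 for Uchl1, and 0 stayed inside both. For Park7 the interval went from -0.25 to 0.015 to -0.24 to -0.0059, without 0 (unadjusted p = 0.0408, adjusted p = 1.00), and for the other 5 genes 0 stayed inside.

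**Figure D5:**
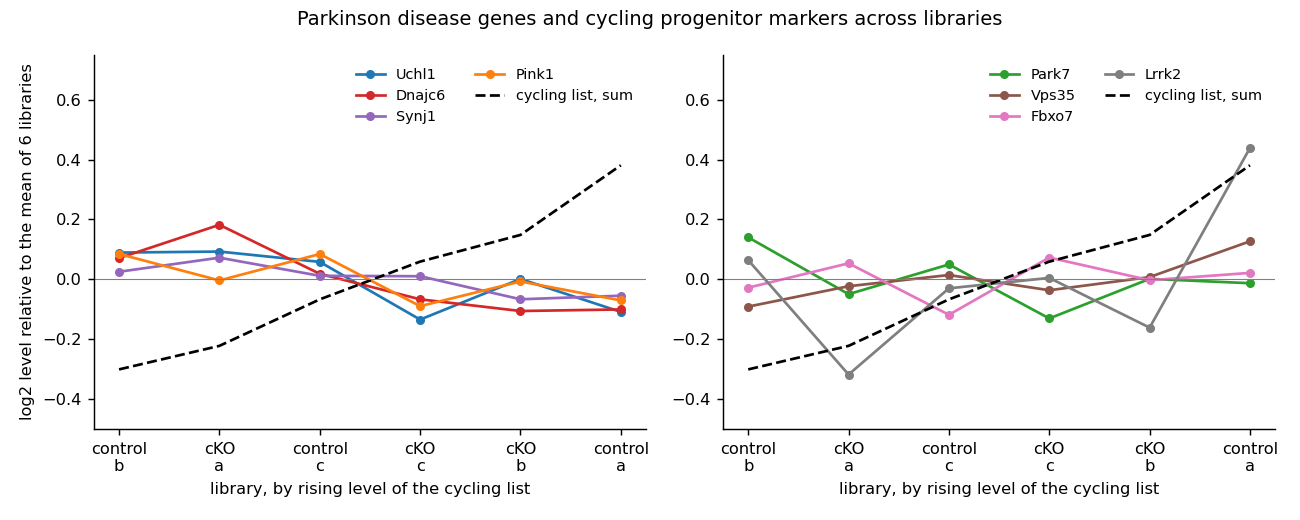
log2 level relative to the mean of 6 libraries for the 8 genes and, dashed, for the sum of the cycling markers, with libraries ordered by that sum from control replicate b to control replicate a. Dnajc6 and Synj1 (left panel) are lower in the 3 libraries on the right than in the 3 on the left, Vps35 (right panel) is lowest at the left end and highest at the right end, and cKO and control libraries are mixed along the axis.

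The genes whose libraries followed each of the 8 most closely were picked as the 2 with the highest Pearson's r of log2(normalized count + 1) over the 6 libraries, among 12915 genes with a mean of at least 100. All 8 found partners at an r of 0.977 or more, and with 6 libraries and so many genes these values are a description only. Dnajc6 was followed by Gabrb1, a GABA-A receptor subunit, at r = 0.997, and by Slc24a3, a sodium, calcium and potassium exchanger, at r = 0.993. Synj1 was followed by Golga7b and Akap12, both at r = 0.994. Uchl1 was followed by Tmem248 and by Ank, both at r = 0.995. Pink1 was followed by Bcl9l, at r = 0.996, and Foxp4, a forkhead factor, at r = 0.990. Park7 was followed by Afg3l2, a protease of the inner mitochondrial membrane, at r = 0.991, and by Shc3, a neuronal adaptor, at r = 0.989. Vps35 was followed by Rpusd4 and by Fst, follistatin, both at r = 0.992. Fbxo7 was followed by Mettl25 at r = 0.984 and Wnk3 at r = 0.983, and Lrrk2 by Brcc3 at r = 0.978 and BC037032 at r = 0.977.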

How the data were processed

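RNA of E14.5 midbrain was measured in 3 cKO and 3 control libraries. The submitters' processing notes name TopHat 1.0.14, Bowtie2 2.1.0, HTSeq 0.6.1p1, DESeq 1.10.1 and GRCm38.p4, while the paper names a DESeq2 test. The table that the authors deposited gives a mean signal per group, in read counts scaled by the size factor of each library. Its ratios, log2 ratios, p-values and adjusted p-values (1 in every row) are the authors' own comparison and were not used. It lists 26852 genes. A further 3 rows without a gene, with 31.8% of the mean counts, were left out.

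Whole read counts per library were recovered by searching the numbers of reads that give each printed mean, with size factors read from the steps of low genes. A single answer in both groups was found for 26822 genes (99.9%), which hold 93.1% of the normalized counts. Every split was searched up to a mean of 20000, and above it libraries between 0.6 and 1.6 of the group mean. The search and the fit were tested on simulated data. With a set spread between libraries, the fit gave an adjusted p under 0.05 to 0.5% of genes changed 1.2-fold. The share was 62.0% at 1.5-fold and 85.5% at 2.0-fold, so small changes would mostly be missed. Recomputed size factors differed by at most 0.00683%.

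Recovered counts of the 17147 genes with a mean of at least 10 were fitted with limma 3.58.1 (R 4.3.3, voom weights, genotype as the term), with Benjamini-Hochberg adjustment over all of them. This is the test set in the design, since the table holds means. Single values were compared by exact two-sided permutation tests over 3 against 3 libraries. Python 3.11.15 with numpy 2.4.6, scipy 1.17.1 and pandas 2.3.3 was used. Gene positions are from GENCODE on GRCm38, matched for 26693 genes, and start regions from RefSeq.

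The 8 genes, the partner and marker lists and the tests were chosen with earlier results of these data known. The genes named are the 8, in each partner list the gene with the smallest p, since none had an unadjusted p under 0.05, and for each of the 8 the 2 genes most alike across libraries. The relatives Lrrk1, Gak, Synj2, Uchl3, Vps26a and Vps26b, the neighbour Orc6 and single marker genes were named after values were seen. Alternatives were other scalings, minimum means, limma-trend with pseudocounts of 1 and 10, the cycling or Y-linked level as a covariate and each library left out in turn. The libraries are pools of embryos, and p-values and intervals measure the spread between such pools.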

Additional observations from a re-analysis of the deposited data

How the results depend on the processing

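Each of the 8 genes had an adjusted p of 0.982 or above in the fit given and in all 14 alternative fits. Lrrk2, Park7 and Pink1 stayed below 0 and Fbxo7 above 0 in all of them. Over all genes, 0 had an adjusted p under 0.05, against 1 with the cycling level as a covariate (Aldh1a1), 1 with the Y-linked level (Cyp26b1), and 0 to 5 when a library was left out, the 5 without control replicate a being the Y-linked Ddx3y, Kdm5d and Uty, and Xist and Gm11702. The count at an unadjusted p under 0.05 was 473, against 974 with no minimum mean, 307 with a minimum of 100 and 336 to 652 with a library left out. It was 705 with the cycling level as a covariate and 631 with the Y-linked level. With the Y-linked level as a covariate the log2 fold change of Uchl1 changed sign, to 0.016.

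With 1 library left out at a time, the log2 fold change ran from -0.42 to -0.18 for Lrrk2, from -0.12 to -0.036 for Pink1, from -0.16 to -0.076 for Park7 and from 0.044 to 0.11 for Fbxo7. It changed sign for Vps35 (-0.090 to 0.022) without control replicate a, for Uchl1 (-0.085 to 0.036) without cKO replicate c at 0.036 or control replicate b at 0.016, for Dnajc6 (-0.081 to 0.065) without cKO replicate a at -0.081 or control replicate a at -0.039, and for Synj1 (-0.022 to 0.048) without cKO replicate a at -0.022 or control replicate a at -0.012. The cause was not tested. No paired analysis was possible because the recovered libraries carry no sample number, so numbers in the labels cannot be attached to them. Depth limits Lrrk2, with 84 to 152 reads per library, most.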
